A study of Mus musculus with 4 samples.

Results

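The genes described here are the tumour suppressor *Trp53* (p53), its relatives and inhibitors, its best-known target genes, and the genes of the mitochondrial and death receptor routes of apoptosis. They are 36 of the 30828 genes in the matrices, picked by gene symbol from a list, and all 36 were found. Their levels were compared between control and *Cnot3*-cKO testis cells of mice at postnatal day 8, in germ cells, in germ cells by stage, and in each class of somatic cell. *Cnot3* encodes a subunit of the CCR4-NOT complex, which shortens the poly(A) tails of mRNAs. Testis cells enriched by flow cytometry for CD9 and THY1 had been loaded into droplets, in an assay that counts each captured 3′ end as 1 unique molecular identifier (UMI) of a gene in a droplet barcode.

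The *Cnot3*-cKO mice carried floxed *Cnot3* alleles and the *Ddx4*-creER transgene, a tamoxifen-dependent Cre made under the promoter of a germ cell gene, so deletion was directed at germ cells and depended on 4-OHT. The control mice are labelled wild-type, and the labels give 4-OHT injection for them too. In related experiments of the study, controls were *Cnot3* flox/flox mice without Cre, and whether these controls carried the floxed alleles is not given in the sources used here. All injections began at postnatal day 1. The labels end them at day 1 or 2 for the control samples and at day 3 or 4 for the *Cnot3*-cKO samples, while the methods give 1 schedule for neonatal mice. If the labels are right, the length of injection and the genotype cannot be told apart. Each genotype has 2 labelled samples merged in 1 matrix, and barcodes cannot be traced to a sample. The comparison is thus of 1 control library with 1 *Cnot3*-cKO library, with no replicate check and no test. Intervals below are at 95% and cover counting error only.

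p53 is a transcription factor that is held at a low level by MDM2 and MDM4 and is stabilised after DNA damage and other stress. Its targets stop the cell cycle, as *Cdkn1a* does, or start apoptosis through pro-apoptotic members of the BCL2 family such as *Bbc3*, *Pmaip1* and *Bax*. BAX and BAK1 open the outer mitochondrial membrane, after which APAF1 and caspase 9 form the apoptosome. Germ cells of the postnatal testis are known to be removed by apoptosis in part through this route, which trims the first wave of spermatogenesis.

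The control library held 181550221 UMIs and the *Cnot3*-cKO library 168770743. Cells were called as barcodes of at least 7977 and 7664 UMIs, which gave 8341 and 9336 barcodes. Of these, 18 barcode sequences were called in both libraries. A called barcode was taken as germ where *Ddx4* and *Dazl* summed to 10 UMIs or more. There were 1350 in control (16.2%) and 564 in *Cnot3*-cKO (6.04%), shares that the sort can set, with medians of 42254.5 and 46014.5 UMIs, and 1 barcode sequence was germ in both libraries. A further list of 8 germ cell genes stood at 1458 and 1698 UMIs per 1e+06 (CPM) in germ barcodes, against 17.7 and 12.01 CPM in Sertoli barcodes. *Cnot3* itself was at 71.4 CPM in control germ barcodes and 39.8 CPM in *Cnot3*-cKO germ barcodes, a log2 ratio of -0.84 (-0.94 to -0.75), and at 63.8 and 67.5 CPM in Sertoli barcodes. Whether the counted 3′ ends lie in the deleted part of *Cnot3* is not given in the sources used here, so transcripts with a deletion upstream may still be counted.

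Germ barcodes were also read by stage marker, with at least 2 UMIs of the marker, and 1 barcode could hold several. *Gfra1* marks the stem state and was found in 247 control and 219 *Cnot3*-cKO barcodes. *Neurog3* marks progenitors (154 and 16 barcodes), *Kit* marks differentiating spermatogonia (479 and 179), and *Meioc* marks germ cells near meiosis (246 and 90). No stage marker was found in 413 and 158 barcodes. Somatic barcodes were classed by marker lists into Sertoli (2910 and 4380), peritubular myoid (831 and 777), barcodes high in both myoid and stromal lists (819 and 999), stroma (2116 and 2185), endothelial (36 and 45) and macrophage (32 and 54).

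A member was called higher or lower at a difference of 1.5-fold in CPM, given at least 100 UMIs over both libraries. In germ barcodes 33 of the 36 members reached 100 UMIs, and *Trp63*, *Trp73* and *Fas* did not. Among the 33, 4 were higher in *Cnot3*-cKO, namely *Cdkn1a*, *Ccng1*, *Eda2r* and *Bbc3*, and 0 were lower. Of all 13350 genes with as many UMIs, 6.42% were higher and 3.35% lower by the same rule. The median log2 ratio of the 33 was 0.07, with 20 above 0 and 13 below, and that of all genes was 0.01. Apart from the 4 higher genes, the other 29 members were within 1.5-fold.

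**Figure D1:**
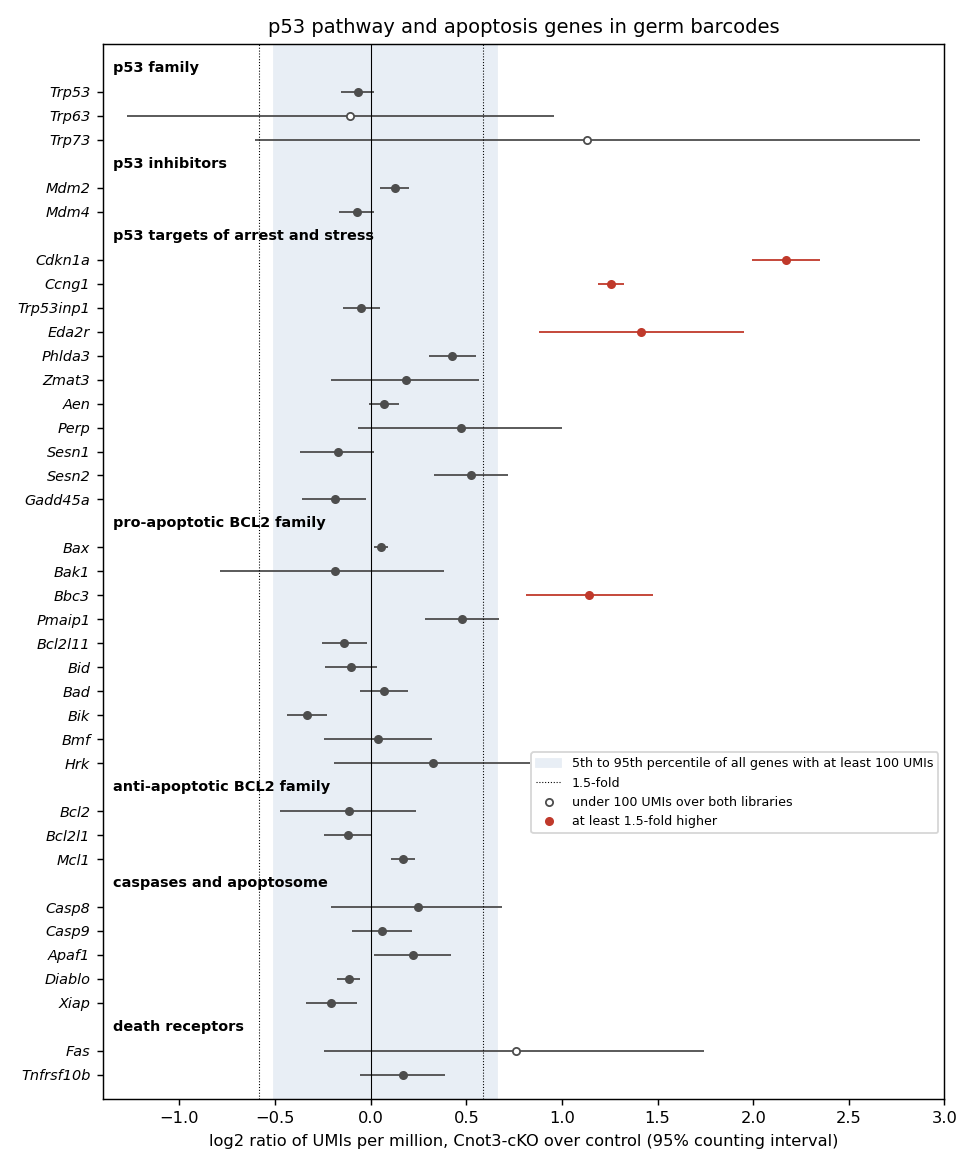
Log2 ratio of CPM in germ barcodes, *Cnot3*-cKO over control, for each of the 36 genes by role. Points are 1 library against 1 library, bars are 95% counting intervals, open points have under 100 UMIs over both libraries, and the band spans the 5th to 95th percentile of all genes (-0.51 to 0.66). *Cdkn1a*, *Eda2r*, *Ccng1* and *Bbc3* lie to the right of the band, and the others with at least 100 UMIs lie within it.

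For the genes upstream, the transcript of p53 itself differed little. *Trp53* (chr11:69580359-69591873, GRCm38, plus strand) was counted as 3651 UMIs in control germ barcodes and 1588 in those of *Cnot3*-cKO, or 63.6 and 60.6 CPM, a log2 ratio of -0.07 (-0.15 to 0.02). The family members *Trp63*, which guards the female germ line, and *Trp73* had 26 and 11 UMIs and 7 and 7 UMIs, too few to compare at this depth. *Mdm2*, which encodes the ubiquitin ligase that destroys p53 and is itself a p53 target, was at 75.4 and 82.2 CPM, a log2 ratio of 0.12 (0.05 to 0.20). Its partner *Mdm4* was at 56.0 and 53.3 CPM, with a ratio of -0.07 (-0.16 to 0.02). The intervals of *Trp53*, *Mdm2* and *Mdm4* all lie inside 1.5-fold.

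The 11 p53 targets of cell cycle arrest and stress held 3 of the 4 higher genes. *Cdkn1a* (chr17:29090976-29100727, plus strand), which encodes the cyclin-dependent kinase inhibitor p21, was counted 386 times in control germ barcodes and 792 times in those of *Cnot3*-cKO. Its level was 6.72 CPM (6.07 to 7.43) against 30.2 CPM (28.2 to 32.4), or 4.5-fold higher, a log2 ratio of 2.17 (1.99 to 2.35). By log2 ratio it was number 8 of 13350 genes. *Ccng1* (chr11:40748552-40755311, minus strand), which encodes cyclin G1, a target that acts back on MDM2, was at 57.8 CPM (55.8 to 59.8) against 138 CPM (133 to 142), a log2 ratio of 1.25 (1.19 to 1.32). The share of mitochondrial UMIs differed between the libraries, with a median of 10.3% in control and 9.17% in *Cnot3*-cKO germ barcodes, and 54.6% and 36.9% of them over 10%. In germ barcodes of at most 10% the ratio of *Ccng1* was 0.93 and that of *Cdkn1a* 2.06. *Eda2r* (chrX:97333840-97377216, minus strand), a receptor of the TNF receptor family, was near the floor of detection, with 56 and 68 UMIs, or 0.975 and 2.60 CPM, and a log2 ratio of 1.41 (0.88 to 1.95). All 3 genes had intervals above 1.5-fold.

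The other targets of arrest and stress fell short of 1.5-fold. *Sesn2*, a sestrin that restrains mTORC1, was at 9.68 and 13.9 CPM (log2 ratio 0.53, 0.33 to 0.72). *Phlda3*, an inhibitor of AKT, was at 24.8 and 33.3 CPM (0.43, 0.30 to 0.55), and *Perp*, a membrane protein of desmosomes, was at 1.38 and 1.91 CPM (0.47, -0.07 to 1.002). *Aen*, an apoptosis-enhancing nuclease, stood at 70.9 and 74.4 CPM, *Trp53inp1* at 48.7 and 47.1 CPM and the RNA-binding *Zmat3* at 2.89 and 3.28 CPM, each with an interval across 0. *Sesn1* was at 13.3 and 11.8 CPM and *Gadd45a*, which responds to growth arrest and DNA damage, at 18.1 and 15.8 CPM (-0.19, -0.36 to -0.02). The median over these 11 targets was 0.43, and 8 of them were above 0.

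Some of the members are known as direct p53 targets, so promoter windows were searched for the p53 decamer, the 10-base unit that p53 binds in pairs. The windows were those of RefSeq (GRCm38.p6, 250 bases before to 50 after each start), for all genes and for all members with a window. The unit reads the same on both strands. It was found in 9 of the 29 members with a window (31.0%) and in 2582 of all 27025 genes with one (9.55%). A gene can have several windows, and by window the shares were 22.7% of 44 and 8.36% of 32851. The members were picked in part as known p53 targets, so this difference is not a result of these data. Pairs within 5 bases in which both units match in full were in 0 member windows and in 8 of all 32851 windows. Pairs with a mismatch were not searched for. The letters right after the second *Cdkn1a* decamer printed below depart from the unit only at their first letter. The matches are printed in capitals with 10 bases on each side, in the direction of the gene. They are shown for 2 genes that were higher in *Cnot3*-cKO germ barcodes and for 3 p53 targets that were not, to let the letters be compared.
Cdkn1a, chr17:29090896-29090925, plus strand: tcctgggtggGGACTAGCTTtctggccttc
Cdkn1a, chr17:29090918-29090947, plus strand: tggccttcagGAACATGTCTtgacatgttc
Ccng1, chr11:40755452-40755481, minus strand: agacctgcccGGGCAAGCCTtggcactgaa
Mdm2, chr10:117710925-117710954, minus strand: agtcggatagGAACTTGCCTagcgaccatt
Bax, chr7:45467080-45467109, minus strand: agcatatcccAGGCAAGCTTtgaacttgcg
Aen, chr7:78895927-78895956, plus strand: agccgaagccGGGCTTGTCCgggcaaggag
Distances are to the start site of the window that holds the match, and a gene can have other start sites. The decamers of *Cdkn1a* begin 73 and 51 bases before it, that of *Ccng1* 185, that of *Mdm2* 186 and that of *Bax* 201 bases before it. That of *Aen* begins 10 bases after it. Further matches are in *Bmf*, *Gadd45a*, *Sesn1* and *Trp53*. The windows of *Bbc3* and *Eda2r* hold no match. A match describes letters only, and the list above shows them both in genes that were higher and in genes that were not.

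Among the 10 pro-apoptotic members of the BCL2 family, 1 was higher. *Bbc3* (chr7:16308393-16318205, plus strand) encodes PUMA, which frees BAX and BAK1 from their inhibitors. It was counted 152 times in control and 153 times in the smaller *Cnot3*-cKO set, or 2.65 CPM (2.24 to 3.10) against 5.84 CPM (4.95 to 6.85), a log2 ratio of 1.14 (0.81 to 1.48). *Pmaip1*, which encodes NOXA, an antagonist of MCL1, was at 9.78 and 13.6 CPM (0.48, 0.28 to 0.67). The effector *Bax* (chr7:45461697-45466898, minus strand) had 17863 and 8458 UMIs, or 311 and 323 CPM, with a log2 ratio of 0.05 (0.02 to 0.09). The other effector, *Bak1*, was at 1.57 and 1.37 CPM.

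The remaining BH3-only genes, whose products bind other BCL2 proteins through 1 short helix, were within 1.5-fold. *Bcl2l11* (BIM) was at 35.0 and 31.8 CPM, *Bid* at 26.0 and 24.2 CPM, *Bad* at 28.1 and 29.5 CPM, *Bmf* at 5.76 and 5.92 CPM and *Hrk* at 1.58 and 1.99 CPM. *Bik* was the lowest of all members by ratio, at 49.99 and 39.7 CPM (-0.33, -0.44 to -0.23). The median over the 10 genes was 0.05.

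The genes that hold apoptosis back were likewise within 1.5-fold. *Bcl2* (chr1:106538178-106714274, minus strand) had 228 and 96 UMIs, or 3.97 and 3.67 CPM (-0.11, -0.47 to 0.24). *Bcl2l1*, which encodes BCL-XL, was at 32.4 and 29.8 CPM, and *Mcl1*, whose short-lived product binds NOXA, was at 98.96 and 111 CPM (0.17, 0.10 to 0.23). In the execution step, *Casp9* was at 18.1 and 18.9 CPM, *Apaf1* at 10.3 and 11.99 CPM (0.22, 0.02 to 0.42) and the initiator of the death receptor route, *Casp8*, at 2.16 and 2.56 CPM. *Diablo*, released from mitochondria to block the caspase inhibitor XIAP, was at 137 and 126 CPM (-0.12, -0.17 to -0.06), and *Xiap* at 28.3 and 24.6 CPM (-0.21, -0.34 to -0.07). Of the death receptors, *Fas* had 22 and 17 UMIs and *Tnfrsf10b*, which binds TRAIL, was at 8.71 and 9.78 CPM (0.17, -0.06 to 0.39). Of these genes, 0 were called in germ barcodes.

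The share of barcodes with a UMI was compared after each barcode was thinned to 10000 UMIs, which left out 20 control and 5 *Cnot3*-cKO germ barcodes. *Cdkn1a* was seen in 78 of 1330 control barcodes (5.86%, 4.66 to 7.27) and in 113 of 559 *Cnot3*-cKO barcodes (20.2%, 17.0 to 23.8). In Sertoli barcodes thinned alike, whose median depths before thinning were 13323 and 12768.5 UMIs, the shares were 1.48% and 0.742%. Without thinning they were 18.4% and 48.0% in germ and 1.68% and 1.005% in Sertoli barcodes. *Ccng1* was seen in 35.6% and 62.4% of germ barcodes and 16.5% and 15.2% of Sertoli barcodes. *Bbc3* was seen in 2.71% (1.90 to 3.73) and 5.90% (4.10 to 8.19) of germ barcodes, and in 5.67% and 5.19% of Sertoli barcodes. For *Eda2r* the shares were 0.677% and 3.04% in germ and 0.605% and 0.767% in Sertoli barcodes. The germ shares of *Bbc3* in both libraries and of *Eda2r* in control were thus no more than, or close to, the Sertoli share, and Sertoli cells may express both genes.

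The UMIs of *Cdkn1a* were spread unevenly over germ barcodes in both libraries. After thinning, 0.752% of control and 4.11% of *Cnot3*-cKO barcodes held 2 UMIs, and 0 control barcodes held 3 or more, which allows a share of up to 0.226%. In *Cnot3*-cKO 1.25% held 3 UMIs, 1.07% held 4 and 0.537% held 5 or more. Before thinning the highest barcode held 9 and 42 *Cdkn1a* UMIs. The tenth of germ barcodes with the most *Cdkn1a* held 70.7% of its UMIs in control and 55.7% in *Cnot3*-cKO. Such a share is high wherever counts are low, at 100% for *Bbc3* in control and *Eda2r* in both libraries. It is therefore not compared between libraries. For *Ccng1*, which had more UMIs per barcode, the median over germ barcodes, on unthinned counts, was 29.0 CPM in control and 97.7 CPM in *Cnot3*-cKO, and its upper quartile 80.4 and 196 CPM.

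**Figure D2:**
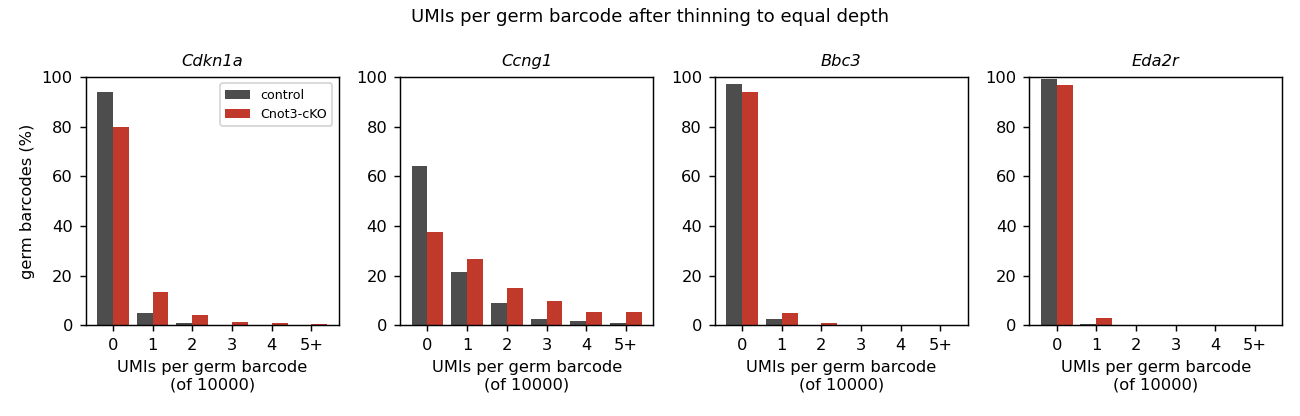
Share of germ barcodes (percent, vertical axis) with 0, 1, 2, 3, 4 or 5 and more UMIs of each of the 4 higher genes after thinning to 10000 UMIs, for 1330 control (grey) and 559 *Cnot3*-cKO (red) barcodes. Barcodes with 0 *Cdkn1a* UMIs were 94.1% in control and 79.8% in *Cnot3*-cKO, and those with 0 *Ccng1* UMIs 64.4% and 37.6%.

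Barcodes with and without a *Cdkn1a* UMI were then set side by side within each library, on the thinned counts. In control, *Ccng1* was at 110.3 CPM in the 78 barcodes with a *Cdkn1a* UMI and 56.5 CPM in the 1252 without, a log2 ratio of 0.96 (0.62 to 1.29). In *Cnot3*-cKO it was at 168 CPM in 113 barcodes and 132 CPM in 446, a ratio of 0.35 (0.11 to 0.59). *Phlda3* was also higher beside *Cdkn1a*, by 0.90 (0.36 to 1.39) in control and 0.77 (0.31 to 1.22) in *Cnot3*-cKO, and *Pmaip1* by 0.98 (0.06 to 1.78) and 0.87 (0.10 to 1.59). *Trp53*, at 65.4 and 64.7 CPM in control, and *Mdm2*, at 75.6 and 72.7 CPM, were close between the barcodes with and without *Cdkn1a*. In barcodes without a *Cdkn1a* UMI, *Ccng1* was at 56.5 CPM in control and 132 CPM in *Cnot3*-cKO. These barcodes make up most of each germ set, so that difference largely repeats the one over all germ barcodes. A barcode without a *Cdkn1a* UMI may still have held the transcript. Other members, *Bbc3* and *Eda2r* among them, are not given for this split. The split was not made within stage groups, and *Ccng1*, *Phlda3* and *Pmaip1* differ in level by stage. Control *Pmaip1* was at 26.2 CPM in *Gfra1* and 4.67 CPM in *Kit* barcodes. The part of stage in these differences was not tested.

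In the *Cnot3*-cKO library the members were also read by the *Cnot3* UMIs that a barcode still held. At 20000 UMIs per barcode, 259 germ barcodes held 0 *Cnot3* UMIs and 257 held at least 1. *Cdkn1a* was at 32.0 CPM in the first and 30.4 CPM in the second, a log2 ratio of 0.08 (-0.25 to 0.40). *Ccng1* was at 145 and 134 CPM (0.12, -0.03 to 0.27) and *Bbc3* at 5.79 and 5.64 CPM (0.04, -0.75 to 0.83). The control library showed 5.11 and 6.79 CPM of *Cdkn1a* for 313 and 935 barcodes (-0.41, -1.02 to 0.16). Within stage groups the unthinned counts of barcodes with 0 and with at least 3 *Cnot3* UMIs differed in *Cdkn1a* in opposite directions. In *Kit* barcodes of *Cnot3*-cKO it was at 47.5 CPM in 27 barcodes with 0 and 21.04 CPM in 75 with at least 3 (1.17, 0.63 to 1.70), and in *Gfra1* barcodes at 33.0 CPM in 54 and 44.9 CPM in 59 (-0.45, -0.87 to -0.03). These intervals take each UMI as independent and may be too narrow for so few barcodes. *Cdkn1a* UMIs were uneven, with up to 42 in 1 *Cnot3*-cKO germ barcode, so a few barcodes could set either direction. A barcode without a *Cnot3* UMI may still have held the transcript, so these sets are not deleted and undeleted cells.

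By stage, *Cdkn1a* was higher in each group that reached 100 UMIs. In *Gfra1* barcodes 3 of 26 members with 100 UMIs were higher and 0 lower, against 6.71% and 3.37% of all genes. *Cdkn1a* was at 10.1 and 39.9 CPM there, with a log2 ratio of 1.98 (1.67 to 2.30). In *Kit* barcodes 5 of 27 members were higher and 0 lower, against 3.96% and 1.65% of genes, and *Cdkn1a* was at 6.87 and 32.9 CPM (2.26, 1.97 to 2.55). In *Meioc* barcodes 5 of 24 were higher and 1 lower, against 2.23% and 4.94%, and *Cdkn1a* was at 10.99 and 29.9 CPM (1.45, 1.07 to 1.82). Among *Meioc* barcodes with no other stage marker that ratio was 0.67, on 39 and 21 UMIs. In barcodes without a stage marker 3 of 25 were higher and 0 lower, against 5.28% and 7.57%, with *Cdkn1a* at 5.76 and 18.7 CPM (1.70, 1.29 to 2.11). In *Neurog3* barcodes, of which *Cnot3*-cKO had only 16, 2 of 19 were higher and 2 lower, against 6.81% and 8.59%. *Cdkn1a* had 25 and 6 UMIs there, or 3.30 and 6.53 CPM (0.98, -0.59 to 2.30), which this depth does not resolve. With a minimum of 1 *Neurog3* UMI the ratio was 2.47 on 66 and 60 UMIs. In barcodes with no other stage marker it was 2.32, on only 11 and 3 UMIs. With a minimum of 3 *Neurog3* UMIs (97 and 8 barcodes) no ratio could be formed, because a library held no *Cdkn1a* UMI. *Cdkn1a* in this group is thus left unresolved.

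*Ccng1* was called higher in all 5 stage groups. In control its level was 30.4 CPM in *Gfra1*, 31.8 in *Neurog3*, 95.6 in *Kit* and 81.4 in *Meioc* barcodes and 32.8 CPM without a marker. In *Cnot3*-cKO it was 98.6, 117, 193, 191 and 108 CPM in the same order. The log2 ratios were 1.70 (1.52 to 1.88) in *Gfra1*, 1.87 (1.53 to 2.21) in *Neurog3*, 1.02 (0.92 to 1.11) in *Kit*, 1.23 (1.09 to 1.37) in *Meioc* and 1.72 (1.56 to 1.89) in unmarked barcodes. *Ccng1* was thus highest in the *Kit* and *Meioc* groups of both libraries. The *Neurog3* ratio depended on how that small group was drawn, at 0.82 (143 and 23 UMIs) with a minimum of 3 marker UMIs and 2.71 (126 and 45 UMIs) in barcodes with no other stage marker, so no order of the ratios by stage is drawn. *Cdkn1a* in control was highest in the *Meioc* and *Gfra1* groups, whose intervals overlap.

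*Phlda3* fell short over all germ barcodes but was called in 4 of the 5 stage groups. It was at 11.7 and 19.7 CPM in *Gfra1* barcodes (0.75, 0.42 to 1.08), 11.4 and 22.9 CPM in *Neurog3* (1.01, 0.25 to 1.71), 33.2 and 57.9 CPM in *Meioc* (0.81, 0.56 to 1.04) and 14.4 and 22.3 CPM without a marker (0.63, 0.32 to 0.94). In *Kit* barcodes it was at 43.4 and 53.9 CPM (0.31, 0.15 to 0.47). Its levels were higher in the *Kit* and *Meioc* groups than in the other 3 in both libraries. With stage groups weighted as in control its ratio over all germ barcodes was 0.58, still short of 1.5-fold. It was called higher with the profile of empty barcodes subtracted (0.61). The same held in germ barcodes with 0 UMIs of the immediate early genes described below (0.63), and under no other alternative.

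*Pmaip1* varied with stage. *Pmaip1* was at 26.2 and 20.05 CPM in *Gfra1* barcodes (-0.39, -0.65 to -0.13), at 4.67 and 10.2 CPM in *Kit* barcodes (1.12, 0.69 to 1.54) and at 8.20 and 12.4 CPM in *Meioc* barcodes (0.60, 0.08 to 1.11). These levels lay on both sides of the control level, by stage.

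*Bbc3* reached 100 UMIs in *Kit* barcodes alone, at 3.39 and 7.08 CPM (1.06, 0.55 to 1.57). It was at 2.83 and 5.08 CPM in *Gfra1* barcodes, 1.45 and 5.44 CPM in *Neurog3*, 4.10 and 10.8 CPM in *Meioc* and 1.502 and 3.74 CPM in unmarked barcodes, with 5 to 56 UMIs a library. *Eda2r* was at 0.850 and 2.36 CPM in *Gfra1*, 0.528 and 1.09 CPM in *Neurog3*, 1.47 and 3.42 CPM in *Kit*, 1.02 and 2.39 CPM in *Meioc* and 0.939 and 2.18 CPM in unmarked barcodes, with 1 to 32 UMIs a library. Both genes were at a higher level in *Cnot3*-cKO in each of the 5 groups, on counts below the minimum for a call in all but 1 case.

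*Sesn2* was called higher in *Kit* barcodes, at 8.75 and 15.1 CPM (0.78, 0.45 to 1.11), and in *Meioc* barcodes, at 7.36 and 14.8 CPM (1.01, 0.51 to 1.51). In *Gfra1* barcodes it was at 14.2 and 14.7 CPM. *Bik* was called lower in *Meioc* barcodes, at 45.1 and 23.9 CPM (-0.91, -1.24 to -0.60), and its ratio was below 0 in all 5 groups. In the small *Neurog3* set, *Gadd45a* (17.97 and 10.9 CPM) and *Xiap* (23.9 and 15.2 CPM) passed the fold downwards on 10 and 14 *Cnot3*-cKO UMIs, and both intervals include 0.

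*Trp53*, *Mdm2* and *Bax* were within 1.5-fold in all 5 stage groups, as was *Bcl2* in the *Kit* group, its only one with 100 UMIs. In the order *Gfra1*, *Neurog3*, *Kit*, *Meioc* and unmarked, *Trp53* was at 58.7, 56.9, 72.5, 64.1 and 61.0 CPM in control and 58.6, 46.8, 68.5, 60.8 and 55.8 CPM in *Cnot3*-cKO. *Mdm2* was at 84.1, 71.9, 73.7, 75.3 and 76.1 CPM and at 86.1, 71.9, 79.6, 82.4 and 81.3 CPM. The intervals of both transcripts lay inside 1.5-fold in the *Gfra1*, *Kit*, *Meioc* and unmarked groups. In *Neurog3* barcodes the *Trp53* interval (-0.77 to 0.17) reached past it, and in those with no other stage marker the ratio was -1.33 on 277 and 6 UMIs. Protein was not measured. *Bax* was at 257, 285, 379, 289.8 and 278 CPM in control and 289, 314, 379, 337 and 299.5 CPM in *Cnot3*-cKO. *Bcl2* was at 3.68, 3.83, 4.26, 5.12 and 3.51 CPM in control and 2.90, 2.18, 4.45, 3.59 and 4.05 CPM in *Cnot3*-cKO, on 2 to 93 UMIs. *Bax* was highest in *Kit* barcodes of both libraries.

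**Figure D3:**
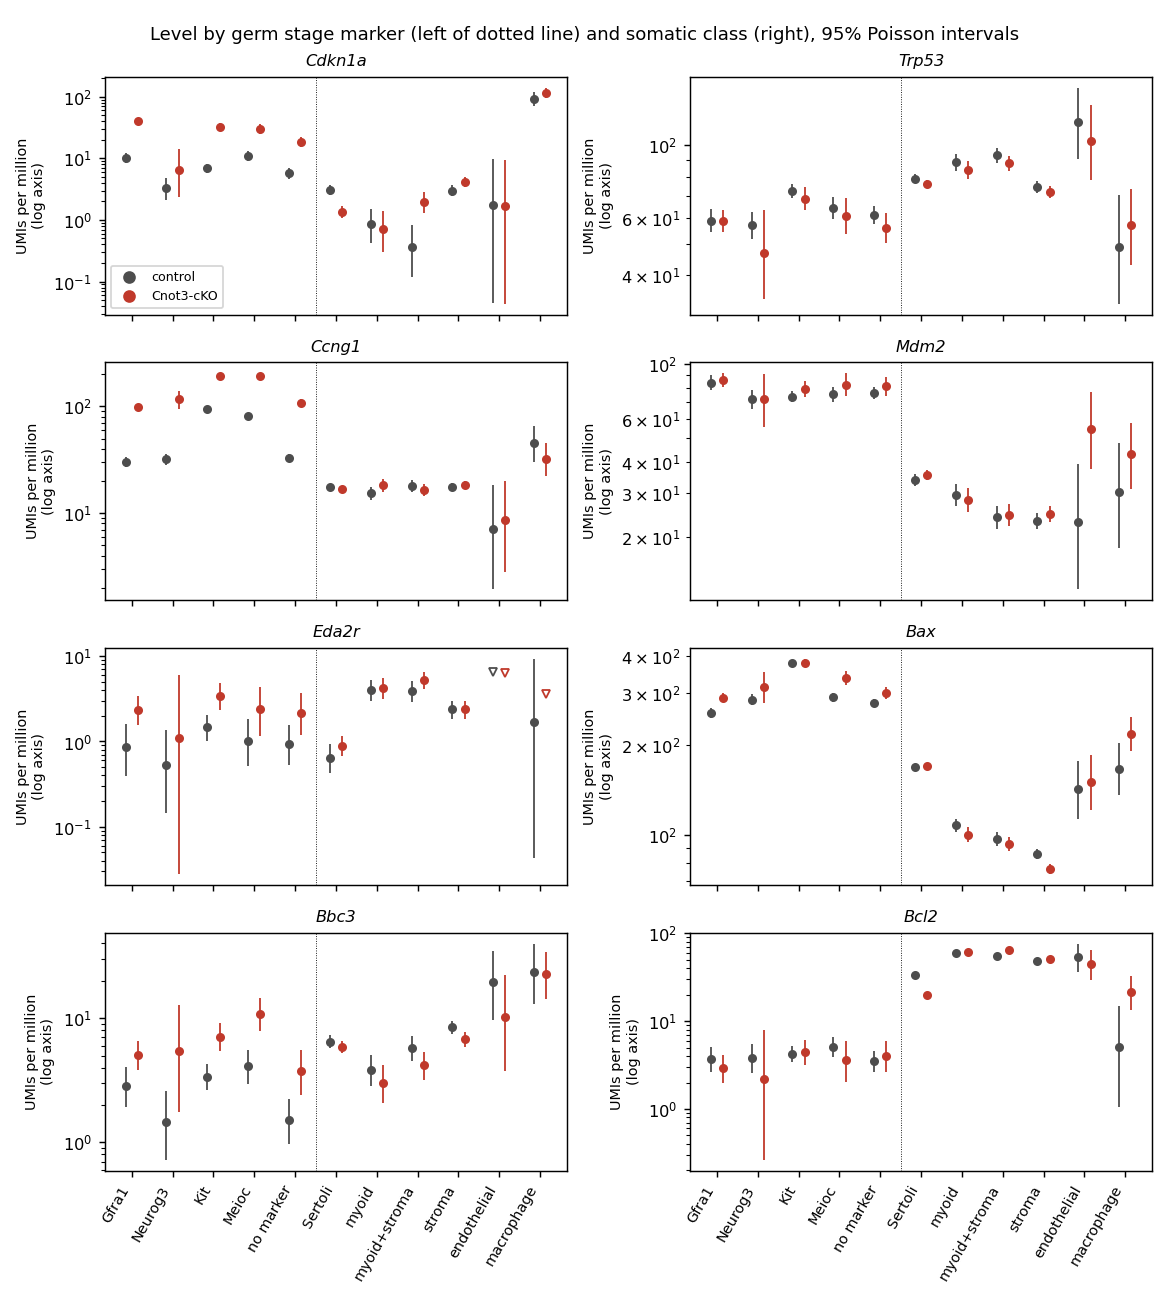
Level in CPM (log axis) of 8 members in 5 germ groups by stage marker and 6 somatic classes, control in grey and *Cnot3*-cKO in red. Bars are 95% Poisson intervals and open triangles give the upper limit where a library held 0 UMIs. *Ccng1* lies apart between the libraries in every germ group and has overlapping intervals in every somatic class.

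Members called in the somatic classes are given next, beside the shares of all genes. Of 30 members with 100 UMIs in Sertoli barcodes, 0 were higher and 2 lower, against 1.06% and 1.09% of all genes. *Cdkn1a* was lower there, at 3.08 CPM (130 UMIs) in control and 1.36 CPM (82 UMIs) in *Cnot3*-cKO, with a log2 ratio of -1.18 (-1.60 to -0.77), the opposite direction to germ barcodes. Those UMIs lay in 49 of 2910 and 44 of 4380 Sertoli barcodes, so a few barcodes carry the value and the interval, which takes each UMI as independent, is too narrow. *Bcl2* was also lower, at 33.6 and 20.1 CPM (-0.74, -0.85 to -0.63). In stroma 0 of 30 members were called in either direction, against 0.747% of genes higher and 1.12% lower, and *Cdkn1a* was at 3.01 and 4.12 CPM (0.46, 0.05 to 0.87). In myoid barcodes *Bmf*, which senses cytoskeletal stress, was higher at 3.01 and 5.46 CPM (0.86, 0.26 to 1.48), as 1 of 25 members, against 2.33% of genes, and 0 were lower, against 0.728%. In barcodes with both myoid and stromal lists 0 of 28 were called, against 0.877% and 2.11%. *Cdkn1a* had 5 of 13938868 UMIs there in control and 29 of 14898092 in *Cnot3*-cKO. Its level was thus also higher in *Cnot3*-cKO in that class, on counts below the minimum for a call.

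Endothelial and macrophage barcodes were few, so only 5 and 7 members reached 100 UMIs. *Phlda3* was higher in endothelial barcodes, at 67.4 and 106 CPM (0.65, 0.05 to 1.28), against 4.63% of genes higher and 3.44% lower. *Mcl1* was higher in macrophages, at 189 and 342 CPM (0.86, 0.55 to 1.18), against 7.40% and 3.72%. Macrophages held the most *Cdkn1a* of any class, at 92.7 and 116 CPM (0.33, -0.14 to 0.82).

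The named members were otherwise close between libraries in somatic classes. *Ccng1* was at 17.4 and 17.0 CPM in Sertoli, 15.4 and 18.2 CPM in myoid, 18.01 and 16.6 CPM in myoid and stromal and 17.6 and 18.4 CPM in stromal barcodes. *Bbc3* was at 6.47 and 5.86, 3.86 and 2.996, 5.74 and 4.16 and 8.45 and 6.74 CPM in the same classes, each time lower in *Cnot3*-cKO but within 1.5-fold. *Eda2r* was at 0.640 and 0.896, 4.01 and 4.23, 3.87 and 5.24 and 2.37 and 2.37 CPM. These 3 genes, higher in *Cnot3*-cKO germ barcodes, were called in none of the 4 large somatic classes.

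*Trp53* was at 78.9 and 75.8 CPM in Sertoli, 88.4 and 84.0 CPM in myoid, 92.8 and 87.7 CPM in myoid and stromal and 74.5 and 71.9 CPM in stromal barcodes. *Mdm2* was at 34.0 and 35.6, 29.5 and 28.1, 24.0 and 24.5 and 23.2 and 24.8 CPM there, and *Bax* at 169 and 169.6, 107 and 99.8, 96.7 and 93.1 and 85.8 and 76.5 CPM. *Bcl2* outside Sertoli barcodes was at 59.3 and 62.0, 55.1 and 64.8 and 48.7 and 51.0 CPM. Its lower level in *Cnot3*-cKO was thus seen in Sertoli barcodes and not in these 3 classes. In endothelial and macrophage barcodes, *Trp53* (117 and 103 CPM) in the first and *Bax* (142 and 151 CPM, and 167 and 218 CPM) in both reached 100 UMIs, and none was called.

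**Figure D4:**
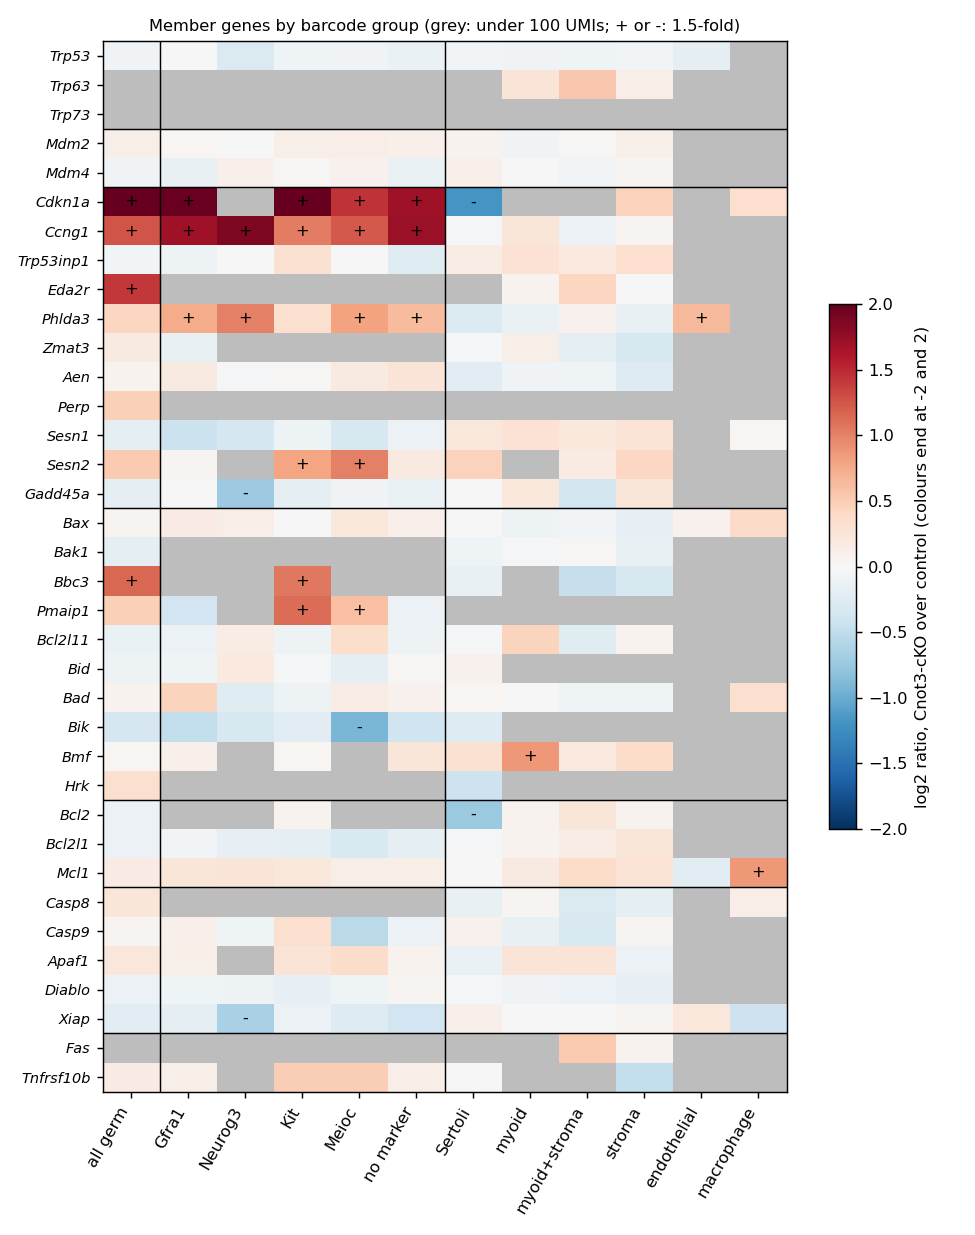
Log2 ratio of CPM, *Cnot3*-cKO over control, of the 36 members (rows, by role) in all germ barcodes, 5 germ groups and 6 somatic classes (columns). Grey cells have under 100 UMIs over both libraries, and + or - marks 1.5-fold or more. The marks of *Cdkn1a* and *Ccng1* fill the germ columns, save *Cdkn1a* in *Neurog3* barcodes, and the Sertoli column holds minus marks for *Cdkn1a* and *Bcl2*.

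The germ barcodes also differed from somatic barcodes in the make-up of the apoptosis genes within the control library. *Bax* was at 311 CPM in germ, 169 CPM in Sertoli and 85.8 CPM in stromal barcodes. *Bak1* (1.57 against 21.6 CPM in Sertoli barcodes), *Casp8* (2.16 against 43.7 CPM) and *Bcl2* (3.97 against 33.6 CPM) were lower in germ barcodes, and still lower, at 0.881, 1.13 and 2.65 CPM, with the profile of empty barcodes subtracted from the germ barcodes. *Bik* was at 49.99 CPM in germ and 4.08 CPM in Sertoli barcodes, and *Pmaip1* at 9.78 CPM in germ barcodes with only 3 UMIs, or 0.0711 CPM, in Sertoli barcodes. *Mdm2*, at 75.4 and 34.0 CPM, and *Ccng1*, at 57.8 and 17.4 CPM, were higher in germ barcodes, and *Trp53*, at 63.6 and 78.9 CPM, was lower. Free RNA reached germ droplets too. Taking the Sertoli list in germ barcodes against that in empty barcodes, it was estimated at 7.07% of germ UMIs in control and 6.47% in *Cnot3*-cKO.

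**Figure D5:**
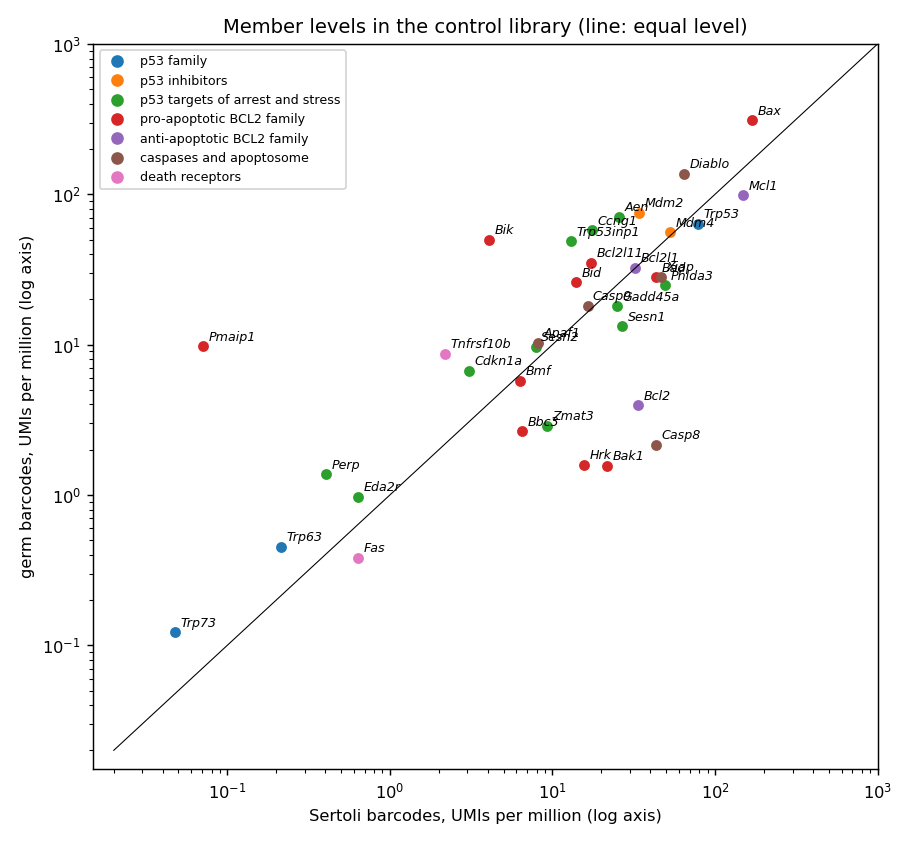
Level in CPM of each member in Sertoli (horizontal) and germ (vertical) barcodes of the control library, both on log axes, coloured by role. *Pmaip1* and *Bik* lie far above the line of equal level, and *Casp8*, *Bak1*, *Hrk* and *Bcl2* far below it.

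Further lists were read beside the members in germ barcodes. Of 19 other p53 targets with 100 UMIs, 5 were higher and 0 lower, against 6.42% and 3.35% of all genes, with a median of 0.21. *Plk2*, a polo-like kinase, was at 6.72 and 15.4 CPM (1.20, 0.99 to 1.40), *Gtse1*, which moves p53 out of the nucleus in late cell cycle, at 19.5 and 42.5 CPM (1.13, 1.005 to 1.25), *Psrc1*, a spindle protein, at 3.31 and 5.19 CPM (0.65, 0.32 to 0.98) and *Tigar*, which lowers glycolytic flux, at 29.6 and 46.1 CPM (0.64, 0.53 to 0.74). The fifth was *Btg2*, named here after its values were seen. Of 20 other apoptosis genes and 12 genes upstream of p53, such as its kinases, 0 and 0 were called, with medians of -0.01 and 0.11, against the same shares. Of 8 genes of the ATF4 stress response with 100 UMIs, 1 was called in each direction, against the same shares. *Asns* was higher (30.2 and 47.4 CPM, 0.65) and *Trib3* lower (8.22 and 5.19 CPM, -0.66).

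Immediate early genes, which respond to tissue dissociation, and cell cycle genes were also counted. In germ barcodes 6 of 9 immediate early genes were higher and 0 lower, against 6.42% and 3.35% of all genes, with *Junb* at 9.58 and 32.2 CPM (1.75), *Fos* at 14.9 and 48.4 CPM (1.70), *Fosb* at 5.40 and 17.1 CPM (1.66) and *Ier3* at 6.70 and 11.99 CPM (0.84). In stroma 8 of 9 were higher, against 0.747% of all genes, and *Cdkn1a* was not called, at a ratio of 0.46 (0.05 to 0.87). In barcodes with both myoid and stromal lists 8 of 9 were higher, against 0.877%. *Cdkn1a* had more UMIs in *Cnot3*-cKO there, below the minimum for a call. In peritubular myoid barcodes 8 of 9 were higher, against 2.33%, and *Cdkn1a* was not called. In Sertoli barcodes 2 of 9 were higher, against 1.06%, and *Cdkn1a* was lower. Among germ barcodes with 0 UMIs of the 9 genes after thinning, 408 in control and 108 in *Cnot3*-cKO, the log2 ratio of *Cdkn1a* was 1.73, that of *Ccng1* 1.33 and that of *Bbc3*, on 45 and 43 UMIs, 1.78. Of 9 cell cycle genes 3 were higher and 0 lower in germ barcodes, with a median of 0.46 and 1 of the 9 below 0. The higher ones were *Ccnb1* at 172 and 364 CPM (1.08), *Ccna2* at 133 and 231 CPM (0.79) and *Top2a* at 204 and 312 CPM (0.61), again against 6.42% of all genes higher. The part of dissociation and of the cell cycle in the higher *Cdkn1a* was not tested. The summed Sertoli list was at 252 and 338 CPM in germ barcodes, the stromal list at 573 and 525 CPM, and the macrophage list, from the class with the most *Cdkn1a*, at 37.5 CPM in control and 9.09 CPM in *Cnot3*-cKO.

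The 5 genes whose ratios over the 5 stage groups were most like those of *Cdkn1a*, by the sum of squared differences of log2 ratios with 0.5 UMI added to each count, were *Fetub*, *Ly6h*, *Ldhc*, *Krt18* and *Cfap45*. Their log2 ratios over all germ barcodes were 1.53, 1.97, 1.62, 2.57 and 1.84. *Krt18* encodes a keratin that Sertoli barcodes also held, at 29.0 and 20.9 CPM. None is a member, and the groups share libraries and barcodes.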

How the data were processed

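The deposited matrices hold raw counts (UMIs of each gene in each barcode), which the authors obtained with Cell Ranger 3.0.1 on mm10 with Ensembl gene names. Aligner settings were not given in the sources used here. Every barcode of the kit is listed and cells had not been called. Each matrix merges both labelled samples of a genotype, so groups come from the labelled genotype and each has 1 library. The members, gene lists and rules were chosen with earlier results of these data known.

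Barcodes were taken as cells by an order-of-magnitude rule (3000 expected, 99th percentile divided by 10), which gave more cells than the study counted. Germ barcodes needed 10 UMIs of *Ddx4* and *Dazl*. A somatic list needed 10 UMIs from 3 markers and a level above its mean over called barcodes, and the highest list named the barcode. Barcodes whose next list was over 50% of the highest were left out as mixed (135 and 211), save the myoid and stromal pair. The scoring was chosen after seeing the data, and 332 and 405 somatic barcodes lay near a boundary. No doublet caller was run. Of the germ barcodes, 63 and 24 also passed a somatic list and were left out in an alternative. Unnamed barcodes (103 and 114), Leydig, T cell and erythroid classes, at most 5 barcodes a library, were not used.

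UMIs were summed per group and scaled to CPM, with exact Poisson intervals, exact conditional binomial intervals for ratios and exact Clopper-Pearson intervals for shares, all at 95%. A call is 1.5-fold with 100 UMIs over both libraries. No p-value was computed. A count of 0 allows up to 3. Thinning drew UMIs without replacement. Named throughout are the members called in germ barcodes with *Trp53*, *Mdm2*, *Bax* and *Bcl2*, at most 4 called genes of each other list, and the 5 genes most like *Cdkn1a*; members called in a stage group or class are named as well. Gene positions are those of GENCODE on GRCm38. Tools were Python 3.11.15, numpy 2.4.6, scipy 1.17.1 and pandas 2.3.3. On simulated germ counts of 13335 genes, 98.0% of genes raised 2-fold and 0.312% of unchanged genes were called. The simulated counts held Poisson counting error only, without differences between libraries, stage make-up or barcodes. The 0.312% is thus not the rate of false calls in the real libraries. Alternatives changed the gate, filters, weighting, scaling and thinning.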

Additional observations from a re-analysis of the deposited data

Results flagged for a closer look

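*Cdkn1a* differed in direction between cell types. Its log2 ratio of *Cnot3*-cKO over control was 2.17 (1.99 to 2.35) in germ barcodes and -1.18 (-1.60 to -0.77) in Sertoli barcodes, so the difference between libraries had opposite signs in the 2 cell types. The Sertoli value rests on 130 and 82 UMIs, held by only 49 of 2910 control and 44 of 4380 *Cnot3*-cKO barcodes. Its interval takes each UMI as independent and is too narrow for so few barcodes. The germ interval takes each UMI as independent too and may also be too narrow. In *Cnot3*-cKO 1 germ barcode held 42 of the 792 *Cdkn1a* UMIs. With 1 library per genotype the difference was not tested.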

How the results depend on the processing

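The alternatives changed the germ gate, the barcodes used, the filters, free RNA, weighting, scaling and the minimum count, and 2 were chosen after seeing the data (leaving out barcodes present in both libraries, and keeping only barcodes without immediate early UMIs). Over them the log2 ratio of *Cdkn1a* in germ barcodes ran from 1.73 to 2.22, that of *Ccng1* from 0.77 to 1.39, the median of the members from 0.01 to 0.16 and the number of higher members from 2 to 6. *Cdkn1a* and *Ccng1* were called higher under every alternative tried. *Cdkn1a* was at 1.90 with stage groups weighted as in control, and at 1.73 in barcodes with 0 immediate early UMIs, where 25 members reached 100 UMIs. With the filters that the methods describe, 236 and 65 germ barcodes remained and 20 members reached 100 UMIs, of which 2 were higher and 1, *Bcl2l11* (-0.78), was lower. With at most 10% mitochondrial UMIs *Ccng1* was at 0.93 and *Bax* at -0.002. With the profile of empty barcodes subtracted 1 member, *Bak1* (-0.64), was lower. The share of germ barcodes with a *Cdkn1a* UMI moved with depth, to 3.63% and 13.3% at 5000 UMIs, 9.94% and 32.2% at 20000 UMIs and 18.4% and 48.0% without thinning, in control and *Cnot3*-cKO. Of the other values of single genes, 157 stayed within their counting interval and 27 moved beyond it. No paired analysis was possible because each genotype is 1 library, and for the same reason no replicate could be left out. Low counts limit *Eda2r*, *Bbc3*, *Fas*, *Trp63*, *Trp73* and all values in *Neurog3*, endothelial and macrophage barcodes.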

Other observations

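Genes of the other lists moved outside germ barcodes as well. *Btg2*, an antiproliferative p53 target that is also an immediate early gene, was at 84.5 CPM in control and 257 CPM in *Cnot3*-cKO stromal barcodes, a log2 ratio of 1.60 (1.54 to 1.67), and *Fos* was at 88.2 and 433 CPM there (2.30, 2.24 to 2.36). *Triap1*, a p53 target that restrains apoptosis, was lower in *Gfra1* germ barcodes, at 12.9 and 5.80 CPM (-1.16, -1.61 to -0.72), against 39.5 and 38.6 CPM in Sertoli barcodes. *Mki67*, a proliferation marker, was at 208 CPM in the 78 control germ barcodes with a *Cdkn1a* UMI and 100.1 CPM in the 1252 without (1.05, 0.81 to 1.29), and at 135 CPM in 113 and 146 CPM in 446 *Cnot3*-cKO barcodes (-0.11, -0.37 to 0.15). These genes were named after their values were seen.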
